A study of Mus musculus with 10 samples.

Results

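The genes described here encode feedback inhibitors of the ERK pathway: the dual-specificity phosphatases Dusp4, Dusp5 and Dusp6, the Sprouty genes Spry1, Spry2 and Spry4, the Sprouty-related genes Spred1, Spred2 and Spred3, and Il17rd, also known as Sef. They were taken by symbol from the gene names of a whole-genome mouse expression array. No cut-off on measured values was used, but earlier results of these data were known when the genes were chosen. The 10 genes were represented by 12 array features (a feature is a distinct oligonucleotide on the array, which can be spotted more than once) among 55681 that were not controls. Total RNA was measured on 10 single-colour arrays, each hybridised with a separate sample. Germline stem (GS) cells, a culture of wild-type spermatogonia that includes stem cells, received no FGF2 or GDNF over 3 days, after which they were held for 24 hr with FGF5 at 100 ng/ml (2 samples) or without it (2 samples). GFRα1+ spermatogonia, the population that holds the spermatogenic stem cells, were isolated by FACS for the GFP reporter from Gfrα1-GFP mouse testes at 2.5 months of age, the mice being wild-type (3 samples) or Fgf5-/- (3 samples). Every sorted sample therefore carried the GFP allele at Gfrα1, and the sort itself used that reporter. The labels give C57BL/6 as the strain of every sample, whereas the methods describe the GS cells as derived from a C57BL/6 and ICR intercross. The samples of each group were described as independent experiments.

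FGF receptors signal through RAS, RAF and MEK to the kinase ERK, and cells carry several brakes on this route whose own genes are transcribed when ERK is active. DUSP proteins remove phosphate from ERK itself, Sprouty and SPRED proteins act upstream at the level of the receptor, RAS and RAF, and IL17RD is a membrane protein that restrains signalling from FGF receptors. Because their transcripts depend on pathway activity, they are widely read as its output. In spermatogonia, FGF and GDNF both feed into this route.

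Levels below are signals on the log2 scale after subtraction of each array's 75th percentile, so that 0 marks that percentile and 1 unit is a 2-fold step. A feature reads only its own oligonucleotide, and levels were compared between arrays and not between genes. Where a gene had several features, the brightest over all arrays stands for it. A feature counted as detected where the scanner software called it well above background. The 75th percentile lay at 575–650 signal units on the culture arrays and 794–1091 on the sorted arrays, and 55.2–65.8% of features were detected per array. All 7 spermatogonial markers examined (among them Gfra1, Zbtb16 and Nanos2) were detected on every array of both materials. Their levels in both materials are described below. The Fgf5 feature was detected on 4 of 4 culture arrays, 0 of 3 wild-type and 1 of 3 Fgf5-/- arrays, so it gave no check of the genotype in the sorted cells.

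**Figure D1:**
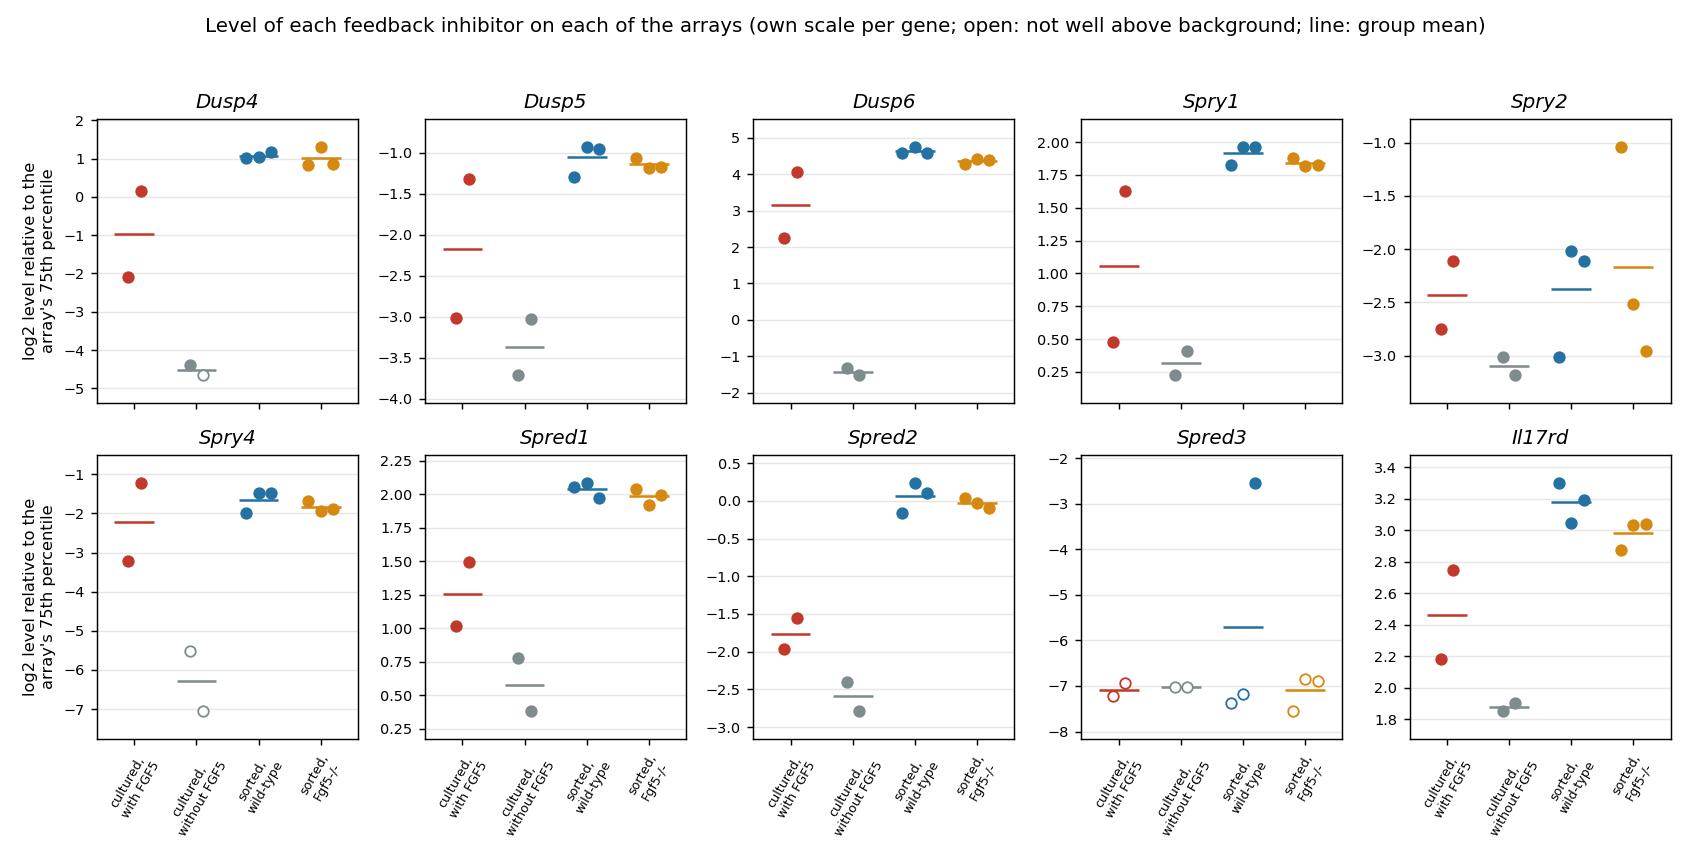
Log2 level of each gene relative to the 75th percentile of its array (vertical axis, own scale per gene) on each of the 10 arrays, grouped as cultured with FGF5 (2), cultured without FGF5 (2), sorted wild-type (3) and sorted Fgf5-/- (3); open symbols were not well above background and lines are group means. Dusp6 lies at 2.26 and 4.06 with FGF5, at -1.33 and -1.53 without it, and between 4.28 and 4.76 in all 6 sorted samples.

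The FGF5 comparison in culture asked which transcripts differ when FGF5 alone is returned to GS cells. Dusp6, whose product is a cytoplasmic phosphatase of ERK, stood at 2.26 and 4.06 in the cultures with FGF5 and at -1.33 and -1.53 in those without. Both FGF5 cultures lay above both controls. The difference was 4.59 ± 0.62 (here and below, ± after a difference is the standard error of the fit; n = 2 and 2), or 24.1-fold, the largest increase among the 34589 features tested. Dusp6 ranked first under 10 of 14 alternative settings, and 53rd without FGF5 replicate 2. Its feature covers chr10:98729985-98730044 in the mm9 coordinates of the array design. The adjusted p was 0.9999 (limma, Benjamini-Hochberg over all tested features; unadjusted p = 9.6e-04), and no feature passed an adjusted p of 0.05 in this comparison (0% of those tested; 880 had an unadjusted p under that value). With 2 samples against 2, an exact permutation test cannot give a p below 0.333, and the differences below are given with their values and errors as a description.

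Dusp4, a nuclear phosphatase that acts on ERK and on other MAP kinases, followed the same order. It stood at -2.10 and 0.15 with FGF5 and at -4.40 and -4.66 without, and the last of these was not well above background. The groups did not overlap, and the difference was 3.55 ± 0.76 (chr8:35882045-35882104). Dusp5, a nuclear phosphatase with ERK as its substrate, was less far apart, at -3.01 and -1.33 with FGF5 against -3.72 and -3.02 without. Its lower FGF5 culture and its higher control nearly touched, so that the difference of 1.20 ± 0.62 had an unadjusted 95% interval from -0.43 to 2.83 (chr19:53615682-53615741).

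Promoters are shown for genes of the set that differed most with FGF5 and for which RefSeq sequence was at hand (Dusp5, Dusp6 and Spred2; GRCm38.p6), as the 250 bases before the annotated start, 5′ to 3′. Capitals mark matches on either strand to 4 motifs bound by factors downstream of ERK and of other kinases. These were the CArG box of serum response factor, the half-site TGACGT of the CRE, the AP-1 site TGANTCA and the ETS string CCGGAA. The ETS string is longer than the GGAA core of ETS sites, which was not searched alone. The motifs were settled on after the sequences had been seen.
Dusp5, chr19:53528895-53529144, plus strand: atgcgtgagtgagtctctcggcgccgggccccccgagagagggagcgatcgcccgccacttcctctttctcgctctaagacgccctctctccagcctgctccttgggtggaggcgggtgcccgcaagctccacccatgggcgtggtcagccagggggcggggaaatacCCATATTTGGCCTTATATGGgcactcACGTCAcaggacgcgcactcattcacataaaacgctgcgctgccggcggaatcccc
Dusp6, chr10:99262981-99263230, plus strand: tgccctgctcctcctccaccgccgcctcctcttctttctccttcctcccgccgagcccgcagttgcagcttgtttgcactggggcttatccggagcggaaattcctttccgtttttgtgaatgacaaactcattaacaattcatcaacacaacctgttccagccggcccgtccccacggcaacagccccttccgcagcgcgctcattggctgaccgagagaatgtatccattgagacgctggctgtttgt
Spred2, chr11:19924192-19924441, plus strand: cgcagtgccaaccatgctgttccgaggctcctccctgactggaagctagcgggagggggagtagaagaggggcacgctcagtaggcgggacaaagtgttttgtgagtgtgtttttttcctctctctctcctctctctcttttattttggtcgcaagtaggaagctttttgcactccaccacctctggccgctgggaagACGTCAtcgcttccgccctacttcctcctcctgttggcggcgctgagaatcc
The Dusp5 promoter held 2 adjoining CArG boxes, which begin 82 and 72 bases before the start, and a CRE half-site 56 bases before it that overlaps neither. The Spred2 promoter held a CRE half-site 52 bases before the start. Dusp6, with the largest difference of the set, had none of these 4 motifs in this window, though the shorter GGAA occurs in it. Promoters were held for 8 of the 10 genes. Of these, 1 had a CArG box, 2 had the CRE half-site and 0 had the AP-1 site or the ETS string CCGGAA. Over all 32851 promoters of the same length, 1.47% held a CArG box, 6.47% the CRE half-site, 6.75% the AP-1 site and 12% the ETS string. These matches describe the letters of the window and were not tested for binding.

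Of the Sprouty genes, whose products are membrane-associated adaptors that dampen RAS-ERK signalling, Spry4 was the furthest apart. Spry4 stood at -3.21 and -1.21 with FGF5 and at -5.51 and -7.06 without. Neither culture without FGF5 was well above background, so the fitted difference of 4.08 ± 0.84 has no measured lower side, and Spry4 was at least 6.38-fold higher with FGF5 (against the lowest detected signal of those arrays, with the scanner's background correction; chr18:38745923-38745982). Spry1 and Spry2 were also higher in both FGF5 cultures than in either control, by much less. Spry1 stood at 0.48 and 1.63 against 0.22 and 0.41, a difference of 0.74 ± 0.41. Spry2 stood at -2.75 and -2.11 against -3.01 and -3.19, a difference of 0.67 ± 0.27.

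SPRED proteins bring neurofibromin to the membrane, where it inactivates RAS. Spred1 stood at 1.01 and 1.49 with FGF5 and at 0.78 and 0.38 without, a difference of 0.67 ± 0.26. A second, dimmer Spred1 feature gave 0.69 ± 0.26. The third, designed to another transcript, was detected on 2 of the 10 arrays and was not tested. Spred2 stood at -1.96 and -1.56 with FGF5 and at -2.40 and -2.79 without, a difference of 0.83 ± 0.24. Both genes were higher in each FGF5 culture than in either control. Spred3 was not tested in any comparison, since 1 of the 10 arrays, a wild-type sorted sample at -2.53, was well above background and the others lay between -7.56 and -6.84.

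Il17rd stood at 2.18 and 2.75 with FGF5 and at 1.85 and 1.90 without. The controls were 0.05 apart and the FGF5 cultures 0.56, both above the controls, with a difference of 0.59 ± 0.24. It was the smallest difference of the 9 tested genes.

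Of the 10 genes, 7 were detected on all 4 culture arrays, and 7 of these 7 were higher in both FGF5 cultures than in both controls, while 7.77% of the 32636 features so detected had that order. At least 2-fold differences in that direction, again without overlap, were seen for 2 of the 7, Dusp5 and Dusp6, against 0.487% of those features. Dusp4 and Spry4 had the same order but were tested through their detection in the FGF5 cultures, where they are high, and lend such a count no support. With them, 9 of 9 tested genes were higher without overlap (8.18% of all tested features) and 4 of 9 at least 2-fold (0.752%). The median of the 9 differences was 0.83, and that over all tested features was -0.03. Values of dim features depended on the background correction: with the normexp model in place of the scanner's, the difference of Spry4 was 1.64, that of Dusp4 1.99 and that of Dusp5 0.71, and 8 of 9 genes remained without overlap. Without FGF5 replicate 2, the differences were 0.36 for Dusp5, which is then below 2-fold, 0.16 for Spry1, 0.35 for Spry2, 0.44 for Spred1 and 0.31 for Il17rd, against 3.69 for Dusp6.

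**Figure D2:**
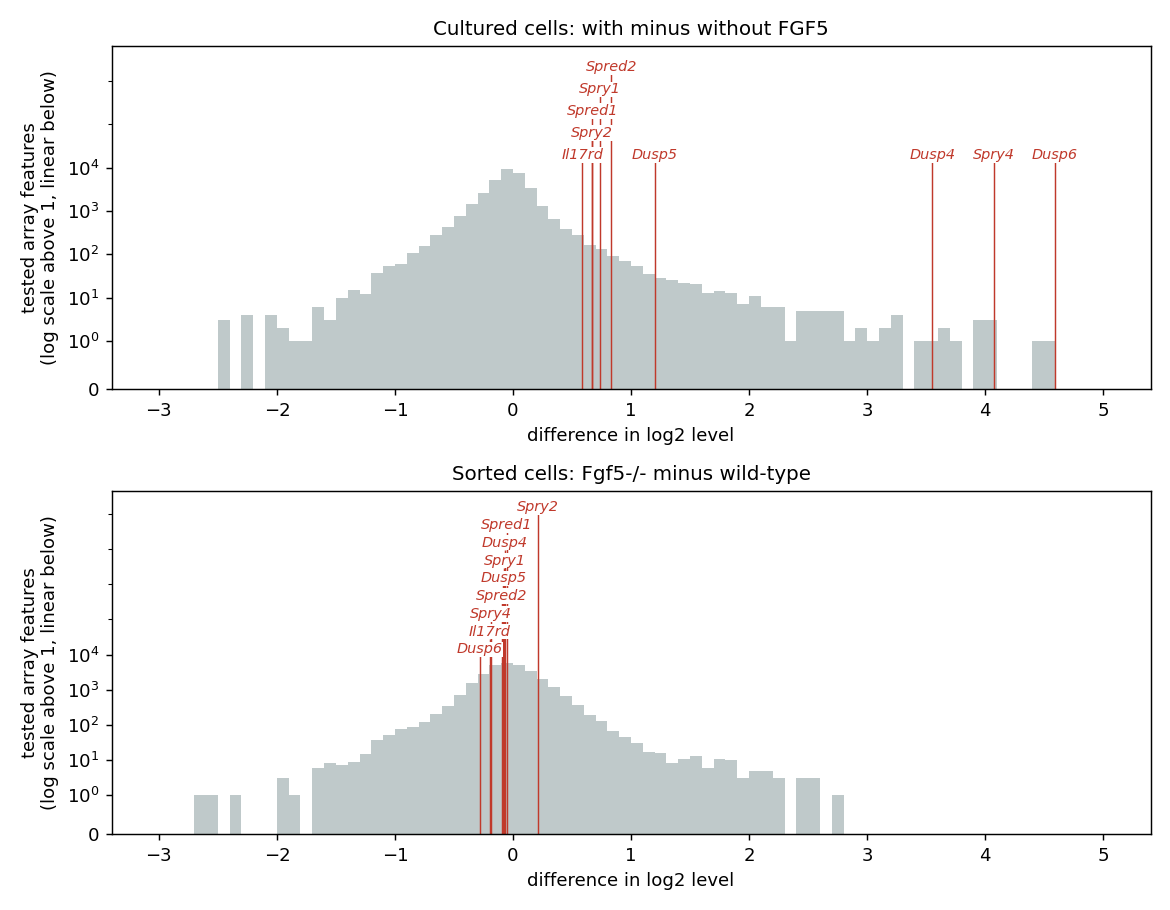
Number of tested features (vertical axis, logarithmic above 1) by difference in log2 level (horizontal axis) for the FGF5 comparison in culture (top) and the Fgf5-/- comparison in sorted cells (bottom), with a red line for each tested feedback inhibitor. In culture the 9 genes lie between 0.59 and 4.59, on the right of the peak, and in sorted cells between -0.28 and 0.21, inside it.

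The cultures with FGF5 differed from each other in these genes. Replicate 2 was above replicate 1 for 9 of 9, by 0.41 (Spred2) to 2.25 (Dusp4) with a median of 1.15. Over all tested features, replicate 2 was the higher in 51.2%, and the median size of the replicate difference was 0.24. Without FGF5, replicate 2 was the higher for 3 of the 9 genes. The summed level of 8 fibroblast and feeder markers, as a percentage of the 75th percentile, was 1300 and 553 in replicates 1 and 2 with FGF5 and 1472 and 701 without. Col1a1, Col1a2, Dcn and Postn were among the 6 markers detected on every culture array, and Lum and Pdgfrb were detected on none. The sum was lower in replicate 2 of both conditions, and lower with FGF5 than without it in both replicates. Equal replicate numbers are not known to share an experiment. Between arrays of equal number, the median difference of the 8 markers, with minus without FGF5, was 0.14 for replicate 1 and -0.32 for replicate 2 (log2). These medians include Lum and Pdgfrb. The part of the 8 markers in the result was not tested. In RNA from a whole population, fewer cells of a type and less RNA per cell cannot be told apart.

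The comparison of sorted cells asked whether loss of the Fgf5 gene in the animal alters GFRα1+ cells. Here the differences of the same genes were small, and none of 30269 tested features passed an adjusted p of 0.05 (0%; limma, lowest adjusted p = 0.73; 2054 had an unadjusted p under 0.05). Dusp6 stood at 4.58, 4.76 and 4.60 in wild-type cells and at 4.28, 4.43 and 4.38 in Fgf5-/- cells. The groups did not overlap, and Fgf5-/- cells were lower by 0.28 on the log2 scale (difference -0.28 ± 0.11, adjusted p = 0.73). Il17rd stood at 3.30, 3.05 and 3.19 in wild-type and at 2.87, 3.03 and 3.04 in Fgf5-/- cells. Its groups were also apart, though the lowest wild-type sample lay just above the highest Fgf5-/- sample (-0.20 ± 0.12). These were 2 of the 9 tested genes, against 9.2% of all features that were lower in Fgf5-/- cells without overlap. With quantile normalization 0 of 9 lay apart, and without wild-type replicate 1 6 of 9 did.

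The other tested genes overlapped between genotypes. Dusp4 stood at 1.01, 1.04 and 1.17 in wild-type and at 0.84, 1.31 and 0.85 in Fgf5-/- cells, with a difference of -0.07 and a 95% interval from -0.45 to 0.31. Spry4 stood at -1.99, -1.48 and -1.48 against -1.69, -1.93 and -1.90, a difference of -0.19 (interval -0.60 to 0.22). The wild-type samples of Spry4 thus lay both above and below the mutant ones. The intervals of Dusp5 (-0.40 to 0.24), Spry1 (-0.31 to 0.17), Spred1 (-0.29 to 0.18) and Spred2 (-0.42 to 0.23) all lay within a 2-fold difference in either direction. Spry2 was the least precise. It stood at -3.01, -2.01 and -2.11 in wild-type and at -1.04, -2.51 and -2.96 in Fgf5-/- cells, a difference of 0.21 (interval -1.07 to 1.48) that turned to -0.36 without Fgf5-/- replicate 1. Over the 9 genes, 8 had lower means in Fgf5-/- cells, where 56.1% of all tested features did. The median difference of the 9 was -0.08, and that of all tested features was -0.03.

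The sorted samples also differed in marker transcripts of other cells. The fibroblast sum was 338–423 in wild-type and 431–519 in Fgf5-/- samples, without overlap, and 7 of its 8 markers were detected on at least 1 sorted array of each genotype. Its members did not move together: Col6a1 differed by 0.54 ± 0.14 and Col1a2 by -0.71 ± 0.29. Col3a1 differed by 1.96 ± 0.32 but was detected on 1 of the 3 wild-type arrays, so its lower side is near background. Leydig cell markers summed to 155–194 in wild-type and 41.2–153 in Fgf5-/- samples, also without overlap and in the other direction. Of these markers, Cyp17a1 differed by -1.06 ± 0.54 and Star by 0.05 ± 0.12. Hsd3b1 was detected on no sorted array and Insl3 had no feature, so the sum follows Cyp17a1. Spermatid markers overlapped, at 563–690 in wild-type and 373–1252 in Fgf5-/- samples. The part of these transcripts in the differences above was not tested.

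**Figure D3:**
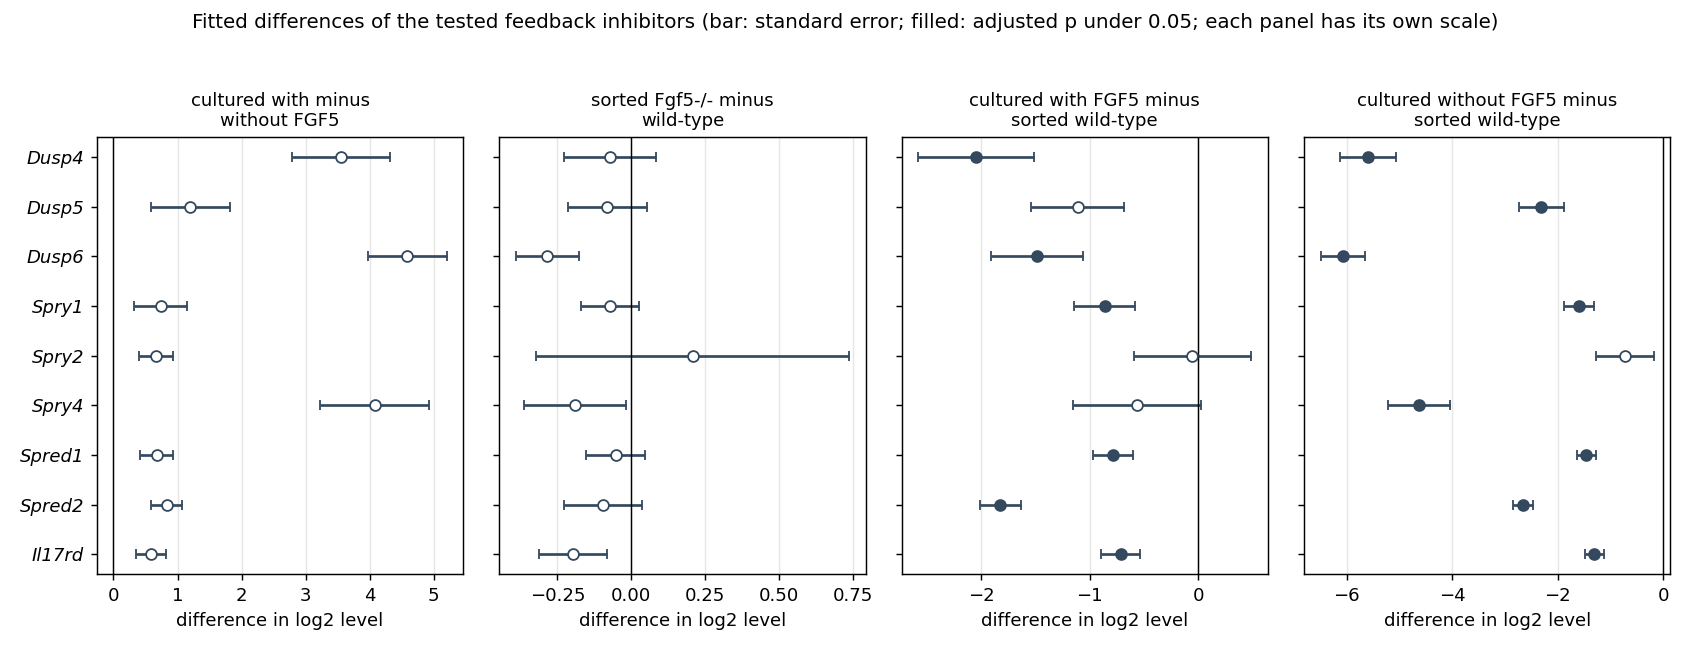
Fitted difference in log2 level (horizontal axis, own scale per panel) with its standard error for the 9 tested genes in the 4 comparisons; filled symbols passed an adjusted p of 0.05. No symbol is filled in the first 2 panels, 6 are filled for cultures with FGF5 against sorted wild-type cells and 8 for cultures without FGF5.

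Cultured cells were next set against freshly sorted wild-type cells, to place the culture levels beside those in the testis. The culture arrays lay on 1 slide and the sorted arrays on another. Cell source, strain, the GFP allele, the withdrawal of FGF2 and GDNF, and slide therefore cannot be told apart in these values. They were also broad: 18258 of 35805 tested features passed with FGF5 and 19538 without, the larger part (60.9% and 62.1%) higher in culture, and the median over all tested features was shifted by 0.22 and 0.27. Differences of the inhibitors can be read against those shifts, which other scalings put between 0.11 and 0.43. Gfra1 differed by -2.31 with FGF5 and -3.87 without, Nanos2 by -1.86 and -1.64, and Sall4 by -1.42 and -1.40. All passed an adjusted p of 0.05, while Zbtb16, Lin28a, Ddx4 and Dazl did not. Fibroblast marker sums were 553–1300 with FGF5, 701–1472 without and 338–423 in sorted wild-type cells. Of that list Pdgfrb, not detected in culture, went the other way (-1.94 with FGF5). Spermatid marker sums were 65.4–72.4, 65.4–81.7 and 563–690, and those of differentiating spermatogonia 5833–6722, 6464–8162 and 11732–13879. Macrophage sums were 401–413, 326–357 and 127–173, and endothelial sums 844–963, 805–843 and 362–449. Leydig, myoid and spermatocyte sums were also higher in culture without overlap, and Sertoli sums were lower. The part of these transcripts was not tested.

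Without FGF5, 8 of the 9 tested genes were lower than in wild-type sorted cells at an adjusted p under 0.05, where 20.7% of all tested features were. Dusp6 fell by 6.08 on the log2 scale (SE 0.42, adjusted p = 3.6e-05), and Dusp4, detected on 1 of the 2 cultures, fell by 5.60 (SE 0.53, adjusted p = 1.3e-04). Spry4 was at least 9.40-fold lower with the scanner's background correction (adjusted p = 4.5e-04). With normexp, the differences of Dusp4, Spry4 and Dusp5 were smaller, at -3.72, -1.93 and -1.44, and all 3 still passed. The smaller decreases were of Spred2 (-2.65), Dusp5 (-2.31), Spry1 (-1.60), Spred1 (-1.46) and Il17rd (-1.30). Spry2 did not pass, with a difference of -0.72 ± 0.54 (adjusted p = 0.29) and wild-type samples that reached down to the level of the cultures. The count of 8 was the same with each array left out in turn, and 6 of 7 passed where a feature had to be detected on all 10 arrays, which leaves out Dusp4 and Spry4.

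With FGF5, 6 of the 9 were lower than in wild-type sorted cells, against 19.9% of all tested features. These were Dusp4 (-2.05 ± 0.53), Spred2 (-1.82 ± 0.19), Dusp6 (-1.49 ± 0.42), Spry1 (-0.86 ± 0.28), Spred1 (-0.78 ± 0.18) and Il17rd (-0.71 ± 0.18). The adjusted p of Dusp4 was 0.013, of Dusp6 0.018 and of Spred2 2.3e-04. Dusp5, Spry2 and Spry4 did not pass, with differences of -1.11 ± 0.43, -0.05 ± 0.54 and -0.56 ± 0.59. The result turned on the FGF5 replicate. Without replicate 1, 3 genes passed (Dusp4 at -0.92, Dusp6 at -0.59 and Spred2 at -1.62) and Spry4 was 0.44 above wild-type, and without replicate 2, 7 passed, Dusp5 among them at -1.95. Spry4 in replicate 2 with FGF5 (-1.21) was above every sorted sample, while Dusp6 there (4.06) was below every sorted sample. Spred2 was below the lowest sorted sample (-0.16) in both FGF5 cultures. The same held for Dusp4, Dusp5, Dusp6, Spry1, Spred1 and Il17rd, each against its own lowest sorted sample. The second Spred1 feature gave -0.39 ± 0.19 (adjusted p = 0.13), so the features of Spred1 differed in this call. Fitted on these groups alone, Dusp6 (adjusted p = 0.065) and Spry1 (adjusted p = 0.091) did not pass.

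Over the 4 groups the means of 8 genes had the same order, for Dusp4, Dusp5, Dusp6, Spry1, Spry4, Spred1, Spred2 and Il17rd: sorted wild-type, sorted Fgf5-/-, cultured with FGF5, cultured without FGF5. For Spry2 the sorted Fgf5-/- mean was highest (-2.17 ± 1.01, SD) and the other neighbours, wild-type (-2.38 ± 0.55) and cultured with FGF5 (-2.43 ± 0.45), were within their spread. The sorted groups were neighbours without a difference beyond their spread in 7 of the 9 genes, Dusp6 and Il17rd being apart as described. The share of all features with the common order was not counted, and that order restates the contrasts above.

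The other genes of the route were examined as 6 lists with 65 entries. Other MAP kinase phosphatases, including those directed at stress kinases, showed little of the pattern in culture. Of 7 tested, 1 was higher with FGF5 without overlap, against 8.18% of all tested features, and the median was 0.16. It was Dusp7 (0.45 ± 0.27), a cytoplasmic ERK phosphatase like Dusp6. Dusp9, of the same cytoplasmic group, differed by 0.20 ± 0.48, Dusp8, directed at stress kinases, by 0.16 ± 0.69, and Dusp1, the immediate-early phosphatase, by -0.06 ± 0.37. Partners of Sprouty and SPRED proteins gave 0 of 7 without overlap in either direction, against 22.7% of all tested features. Tesk1, a kinase bound by Sprouty proteins, differed by -0.31 ± 0.26, and the ubiquitin ligase genes Siah2 and Cbl by -0.26 ± 0.26 and 0.16 ± 0.18. Nf1, which encodes neurofibromin, differed by 0.01 ± 0.17.

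Among 13 other brakes on receptor tyrosine kinases and RAS, 2 were higher in both FGF5 cultures, against 8.18% of all tested features. They were Sh2b3 (0.89 ± 0.40), an adaptor that restrains cytokine receptors, and Lrig3 (0.39 ± 0.20). Lrig1, which restrains receptor tyrosine kinases, differed by -0.29 ± 0.22. The core of the route from RAS to ERK had a median of -0.06 over 16 tested genes. Of these, 1 was higher without overlap, the adaptor gene Shc1 (0.32 ± 0.20), and 3 were lower without overlap. The latter were Frs3 (-0.35 ± 0.17) and Frs2 (-0.06 ± 0.15), which encode adaptors of FGF receptors, and Araf (-0.07 ± 0.15). Over all tested features, 8.18% were higher without overlap and 22.7% lay apart in either direction, near the shares of this list. Mapk3, which encodes an ERK, differed by -0.35 ± 0.28 with overlap. The 4 FGF receptors lay between -0.12 (Fgfr4, with Fgfr3 also at -0.12 and Fgfr2 at -0.04) and 0.03 (Fgfr1). Transcripts other than the inhibitors that are known to rise with ERK activity stood apart from these lists in size. Of 11 tested, 10 were higher with FGF5, where 41.4% of all tested features were. Of the 11, 5 were at least 2-fold higher without overlap, against 0.752% of all tested features. These were the ephrin receptor gene Epha2 (4.43 ± 0.84), the ETS factors Etv5 (3.92 ± 0.66) and Etv4 (3.24 ± 0.56), Phlda1 (2.18 ± 0.53) and Ier3 (1.63 ± 0.41). The others overlapped between groups: Fos (1.57 ± 1.09), Egr1 (0.87 ± 0.63), Fosl1 (0.71 ± 0.44), Ccnd1 (0.65 ± 0.63), Etv1 (0.03 ± 0.18) and Emp1 (-0.16 ± 0.42). Fos, detected on 1 culture without FGF5, was tested through the FGF5 cultures and lends the count of 10 no support. The list was drawn up with earlier results of these data known, and the paper reports Etv5 as upregulated by FGF5. The shares therefore describe the list and are not independent support. No listed gene passed an adjusted p of 0.05 in culture or in sorted cells.

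In sorted cells, 11 of 12 tested ERK-responsive transcripts had lower means in Fgf5-/- samples, where 56.1% of all tested features did. Their median was -0.22. Of the 12, 5 were lower without overlap (Phlda1, Etv5, Ccnd1, Fosl1 and Etv4), against 9.2% of all tested features. Phlda1 differed by -0.42 ± 0.17 and Etv5 by -0.31 ± 0.12. Of the other brakes, 5 of 13 were also lower without overlap and 1 was higher, with a median of -0.01. Other phosphatases (2 of 7 lower without overlap) had a median of -0.04, the route from RAS to ERK (3 of 16) -0.05, the FGF receptors (0 of 4) -0.05 and the partners of Sprouty and SPRED proteins (0 of 7) -0.10.

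**Figure D4:**
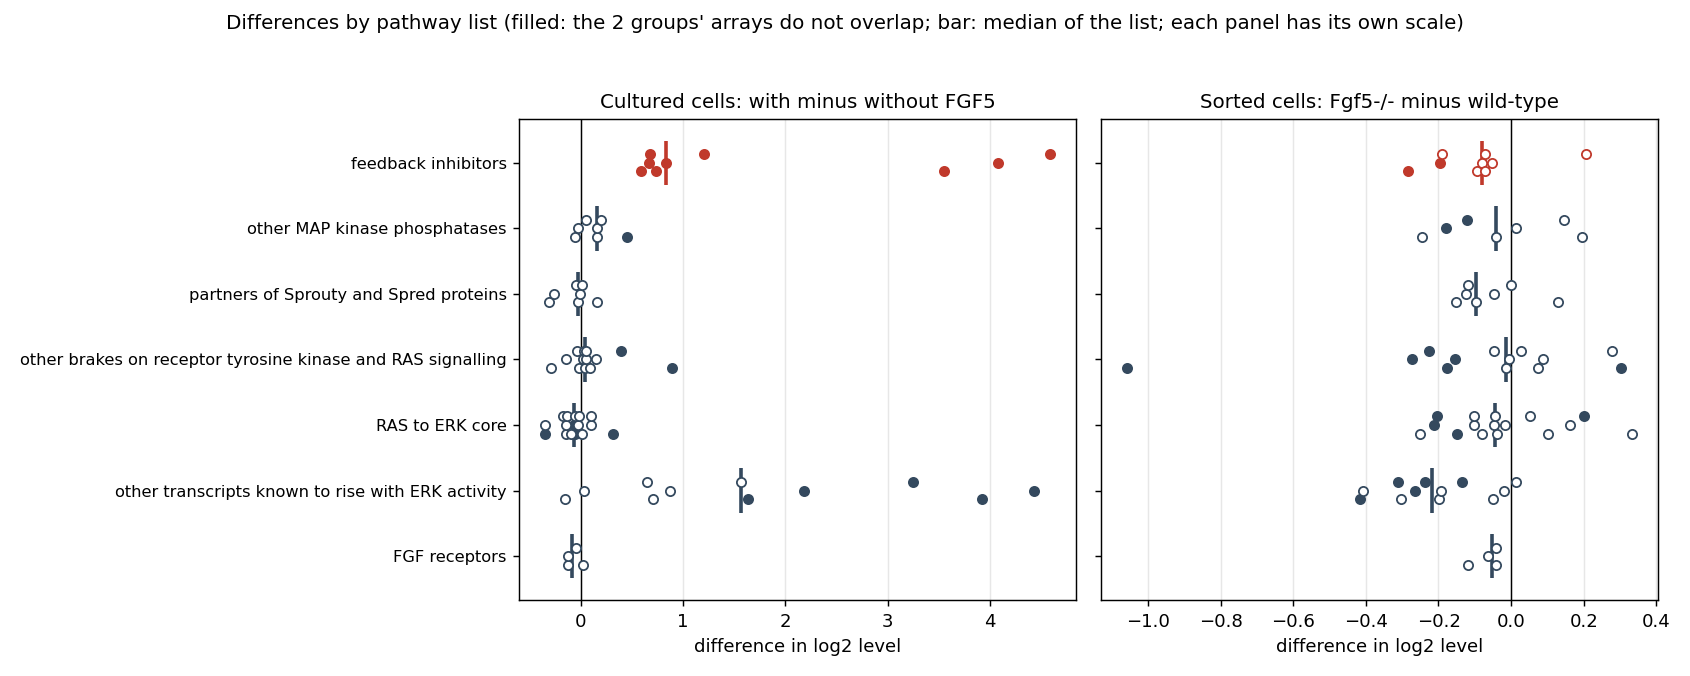
Difference in log2 level (horizontal axis, own scale per panel) of the tested genes of each list (rows) for the FGF5 comparison in culture (left) and the Fgf5-/- comparison in sorted cells (right); filled symbols are genes whose groups do not overlap and bars are list medians. In culture the medians of the inhibitors (0.83) and of the other ERK-responsive transcripts (1.57) lie apart from those of the other 5 lists, which are between -0.08 and 0.16.

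The genes most like Dusp6 across the 10 arrays were found by centring each profile on its own mean and taking the root mean square distance. Candidates were the 16267 features detected on all arrays whose gene name matched the RefSeq symbol of their accession. The nearest were Etv4 (0.28), Etv5 (0.39), the neurofilament gene Nefm (0.43), Epha2 (0.57) and the lymphotoxin gene Ltb (0.68). Nefm had group means of 0.55 with FGF5, -2.74 without, 2.64 in wild-type and 2.45 in Fgf5-/- cells. For Spry4 the nearest were Epha2 (0.25), Egr2 (0.48), Etv5 (0.54), Etv4 (0.54, by another of its features) and Tmc6 (0.64). Spry4 itself was not well above background in 2 of the 10 arrays, so part of its profile is below measurement. Within the set, the closest pair by the same measure was Spred1 and Il17rd (0.18), and Dusp6 was 1.42 from Spred2, its nearest among genes detected on all arrays. Distances over 10 arrays that differ mostly between 4 groups describe likeness of group levels.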

How the data were processed

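Per the labels and the study's methods, 25 ng of total RNA per sample was labelled with Cy3, hybridised to Agilent 8x60K mouse arrays and scanned, and the authors extracted signals with Feature Extraction (10.7.3.1 in the submitters' notes, 10.7.1.1 in the file header). The deposited scanner files give a background-corrected intensity per spot. Deposited normalized log2 values differed from those recomputed here by a constant per array of 0.13–0.20. Intensities were floored at 1, logged, and shifted by each array's 75th percentile. Spots with outlier flags were left out and spots of a feature averaged. Features detected on every array of at least 1 compared group were tested with limma 3.58.1 in R 4.3.3 (lmFit, eBayes, Benjamini-Hochberg). Each within-material comparison used its own 4 or 6 arrays, and cultured against sorted cells used all 10. For the array comparisons the methods name no test. All genes of the set are named, with up to 3 genes per pathway list by size of difference in culture. Other list and marker genes, such as Dusp1, Nf1, Araf, Frs2, Phlda1 and Ier3, were chosen after their values were seen. The genes, lists and tests were chosen with earlier results of these data known. Precision is set by the number of arrays. The code was tested on simulated data. Of the 10 genes, 9 had an array accession found in RefSeq, and which part of a transcript each feature covers was not analysed here. Alternatives were the scaling, background correction, filter, outlier flags, intensity trend, replicate block, groups fitted, the mean of a gene's features, and each array left out.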

Additional observations from a re-analysis of the deposited data

How the results depend on the processing

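In culture, the differences of the 9 inhibitors kept their direction under each alternative in which they were tested and with each array left out, and 0 features passed. Dusp4 and Spry4 were not tested under the strict filter, where 7 of 7 lay apart; elsewhere 8 or 9 of 9 did. In sorted cells, quantile normalization left 0 inhibitors lower without overlap. Spred1 turned to 0.0041 under quantile normalization, 0.0044 with the percentile over detected features and 0.046 as the mean of its features. With each sorted array left out, 0–6 features passed, 2–6 inhibitors lay lower without overlap, and the differences ranged from -0.36 to 0.60 for Spry2 and from -0.22 to 0.0094 for Dusp4. For cultures with FGF5 against wild-type, Spry2 turned to 0.11 with the percentile over detected features and 0.023 with normexp. With each array left out, Spry2 ranged from -0.37 to 0.27 and Spry4 from -1.56 to 0.44, and 3–7 inhibitors and 12614–20274 features passed. With the mean of a gene's features, fewer entries were tested (24756), and 11829 passed there and 12915 without FGF5. The causes of these shifts were not tested. Where leaving out an array left a group with 1 sample, that sample was assumed to vary like the others.

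The methods do not say whether equal replicate numbers share an experiment. With the replicate block, 0 features passed in culture and 0 in sorted cells, as without it, and no call changed. Deviations from group means correlated at 0.64 for the 2 culture numbers and at -0.42 to -0.15 for the 3 sorted ones. The precision is limited by 2 or 3 arrays a group, and the level of Spry4 without FGF5 and of Spred3 is bounded by the background.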

Other observations

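Features of the set that were detected on few arrays gave single values. The Spred3 feature was well above background on wild-type replicate 3 alone, at -2.53. The third Spred1 feature was well above background on FGF5 culture replicate 2 (-4.12) and Fgf5-/- replicate 1 (-4.23). Among the other brakes, Pebp1, which encodes a RAF kinase inhibitor and was named after its value was seen, differed by -1.06 ± 0.36 in Fgf5-/- against wild-type sorted cells without overlap (limma, adjusted p = 0.73), and by 0.05 ± 0.19 in culture.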
